A study of Homo sapiens with 6 samples.

Results

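RAB proteins are small GTPases that sit on the membranes of the cell and give each compartment its identity. They are loaded with GTP by exchange factors (GEFs), recruit effectors such as tethers and motor adaptors, and are switched off by GTPase-activating proteins (GAPs). A lipid anchor and a chaperone cycle move them between membrane and cytosol. In exocrine pancreas and its tumours they are best known for granule secretion, for traffic of integrins and growth factor receptors, and for autophagy.

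The members described here are the rows of the deposited gene table whose symbol is RAB followed by a number, with an optional letter and digit, and whose transcript type includes protein coding. The rule took 63 of 58825 genes, and 59 of them passed the filter on low counts. RAB symbols without a protein coding type, 8 in all, were left out. The cells were PANC-1, a human line from a pancreatic ductal carcinoma. Bulk RNA was sequenced from 3 libraries of cells given 8 µM CMR for 48 h and from 3 control libraries. The labels do not spell out CMR, say what the control cells received, or state that the libraries came from separate cultures, so p-values measure only the spread between these libraries.

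The libraries held 66460535, 70129221 and 68338576 counts with CMR and 51147268, 51715411 and 63811430 counts in controls. Of 5 marker genes for a ductal carcinoma line (KRT7, KRT8, KRT18, KRT19 and VIM), 4 had a mean of at least 1 FPKM, the authors' length-scaled expression unit. Their summed level was 1221 to 1329 FPKM in controls and 333 to 533 FPKM with CMR, and the part of this difference in the RAB results was not tested. The labels' protocol text describes poly(A) capture but then names both fractions, so which was sequenced is uncertain. A protocol label names adipose as a source, but 4 adipocyte markers together reached no more than 0.138 FPKM in any library, with LEP at a count of 0 in all 6. Lists of acinar and endocrine genes (5) and of blood and endothelial genes (4) stayed at or below 0.165 FPKM summed, with CPA1, INS, GCG and CD3E at 0 throughout. The acinar gene PRSS1 had counts of 17, 15 and 14 with CMR and 0 in every control. It was called higher (edgeR adjusted p = 0.0109), at a mean of only 0.0948 FPKM with CMR, and passed the low-count filter only through the CMR libraries.

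The gene starts of RAB5A and RAB21 are shown because they were the matched members that held the CLEAR element, and that of RAB1B, an abundant member that fell, because it did not. They were chosen after the search, so the display is no support for a pattern: RAB22A and RAB14, endosomal members that also rose, have promoters here without the element. Each run is the 250 bases before the RefSeq start on build GRCh38.p14, plus strand, 5′ to 3′, at chr3:19946847-19947096 for RAB5A, chr12:71754613-71754862 for RAB21 and chr11:66268389-66268638 for RAB1B. Capitals mark the CLEAR element TCACGTGA, which the lysosomal regulator TFEB is known to bind.
RAB5A: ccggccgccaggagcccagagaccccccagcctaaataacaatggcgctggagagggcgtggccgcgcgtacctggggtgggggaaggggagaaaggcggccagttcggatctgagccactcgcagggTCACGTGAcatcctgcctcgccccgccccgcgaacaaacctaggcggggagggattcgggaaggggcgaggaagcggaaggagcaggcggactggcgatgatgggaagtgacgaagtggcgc
RAB21: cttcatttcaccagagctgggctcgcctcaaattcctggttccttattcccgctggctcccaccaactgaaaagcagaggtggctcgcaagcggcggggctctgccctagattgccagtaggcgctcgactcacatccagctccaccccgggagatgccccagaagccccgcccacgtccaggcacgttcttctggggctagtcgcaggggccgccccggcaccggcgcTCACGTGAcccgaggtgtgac
RAB1B: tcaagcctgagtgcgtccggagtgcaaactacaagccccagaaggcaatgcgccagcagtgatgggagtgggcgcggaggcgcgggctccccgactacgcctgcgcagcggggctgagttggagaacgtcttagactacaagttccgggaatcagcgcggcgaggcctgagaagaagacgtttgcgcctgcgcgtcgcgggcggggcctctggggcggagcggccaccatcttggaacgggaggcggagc
The element lay 122 to 115 bases before the start in RAB5A and 21 to 14 bases before it in RAB21, and these letters are not in the RAB1B window. In RAB5A it overlaps a match to the antioxidant response element described next. Promoters of 300 bases (250 before and 50 after the start) were given for 50 of the 63 members, as 71 start sites. RAB39B, RAB33A, RAB33B, RAB36 and RAB1A were among the members without one. Several of the largest risers were therefore not searched, and the shares below do not cover them. On either strand, TCACGTGA was in 2 of 71 (2.82%), against 0.98% of all 35116 promoters. The antioxidant response element TGACNNNGC was in 16.9% of member promoters and 13.3% of all. TGATGNAAC, one form of the amino acid response element bound by ATF4, was in 1 member promoter, that of RAB28 (1.41%, against 0.786% of all). The other form, TGATGNAAT (0.991% of all), the unfolded protein response element TGACGTGG (0.729%) and the ER stress elements ERSE (0.0769%) and ERSE-II (0.0541%) were in none of the 71. A match is a run of letters and no measure of binding.

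Expression of the family was concentrated in a few genes. RAB7A, the late endosome RAB, was the highest member in every library, at a mean of 139 FPKM with CMR and 120 FPKM in controls. The 5 highest members of a library held 48.6 to 50.9% of the family's summed FPKM and the 10 highest held 67.4 to 72.3%. At least 1 FPKM was reached by 41 to 44 members per library, while 15 members stayed below it in all 6. RAB25, the epithelial relative of RAB11A, had no count in any library, which allows up to 0.0587 CPM (counts scaled to library size) in the shallowest one (3 counts, counting error only).

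The summed level of all members was 895, 872 and 908 FPKM with CMR and 749, 751 and 736 FPKM in controls, so the groups did not overlap. The means were 891 ± 18.2 and 745 ± 8.37 FPKM (SD, n = 3), or 0.383% ± 0.0128 and 0.302% ± 0.00138 of the summed FPKM of all genes. These are shares of bulk RNA, so more or fewer cells of a kind and more or less RNA per cell cannot be told apart.

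**Figure D1:**
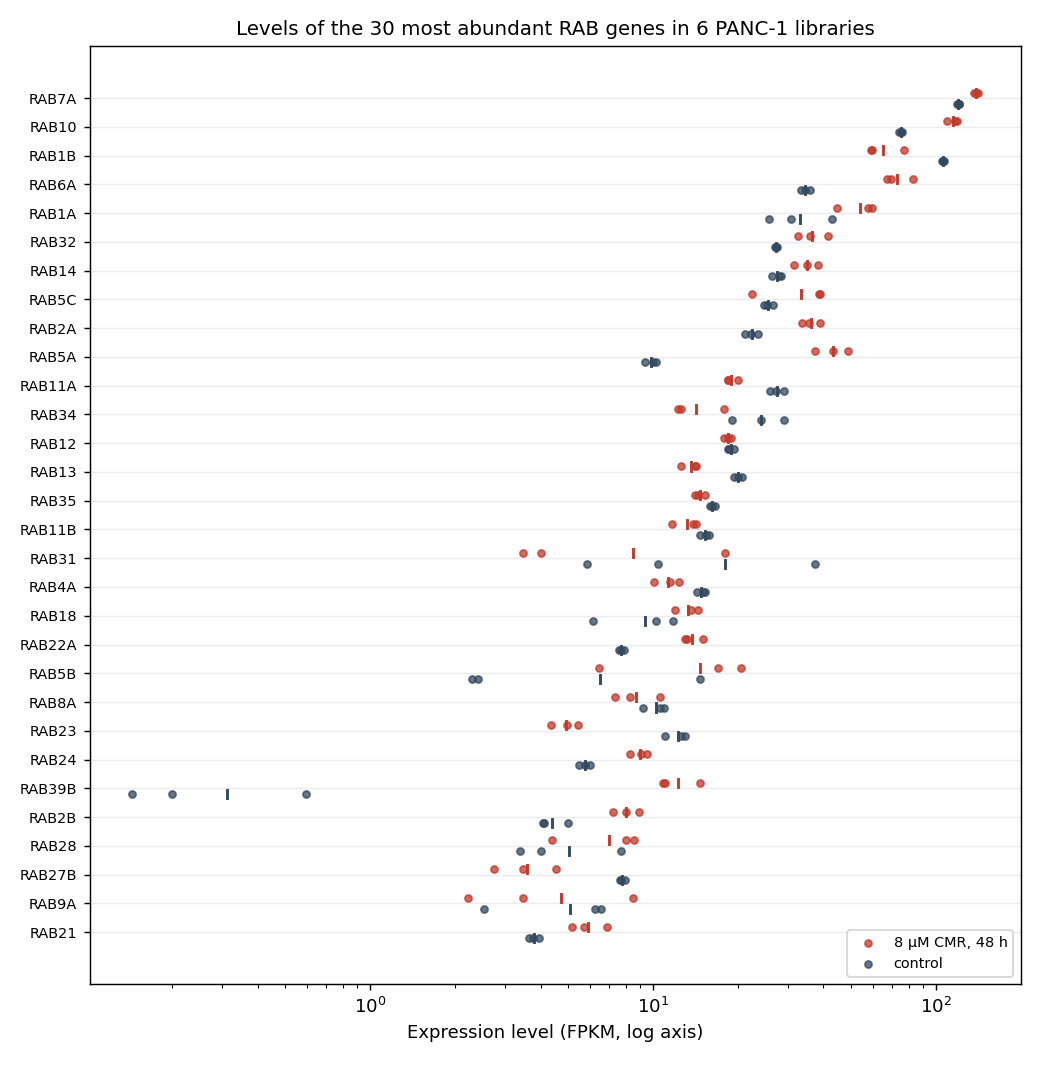
FPKM in each library (logarithmic axis) for the 30 RAB members of highest mean level, with each point 1 library, a tick at each group's mean and colours for the 2 groups. RAB7A leads in all 6 libraries, RAB5A and RAB6A sit higher with CMR and RAB1B sits lower.

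With CMR, 20 RAB genes rose and 10 fell by edgeR's quasi-likelihood test at an adjusted p under 0.05, and 29 did not pass. That is 33.9% of tested members higher and 16.9% lower, against 20.5% and 18.1% of all 19200 tested genes, of which 38.6% were called in either direction. Calls are more frequent among well expressed genes. At a mean of at least 5 FPKM, 12 of 28 members rose and 7 fell (67.9% called), against 56.7% called among 6477 such genes. The median log2 fold change was 0.33 over the 59 members and -0.01 over all genes. Calls that also passed 2-fold numbered 13 of 59 (9 up, 4 down), against 3537 of all 19200 genes (18.4%). At a mean of at least 5 FPKM they numbered 5 of 28 members and 1238 of 6477 genes. The libraries of the 2 groups did not overlap for 40 of 59 members (24 higher, 16 lower with CMR), against 10345 of all 19200 genes (53.9%). At a mean of at least 5 FPKM this held for 21 of 28 members and 4478 of 6477 genes. Summed FPKM of the 20 risers was 599 ± 31.1 with CMR and 378 ± 9.32 in controls, and that of the 10 that fell was 134 ± 14.2 and 217 ± 6.66 (SD, n = 3). Both sets were picked by their calls in these same libraries. The direction of each sum was thus fixed by the selection, and only its size describes the data.

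**Figure D2:**
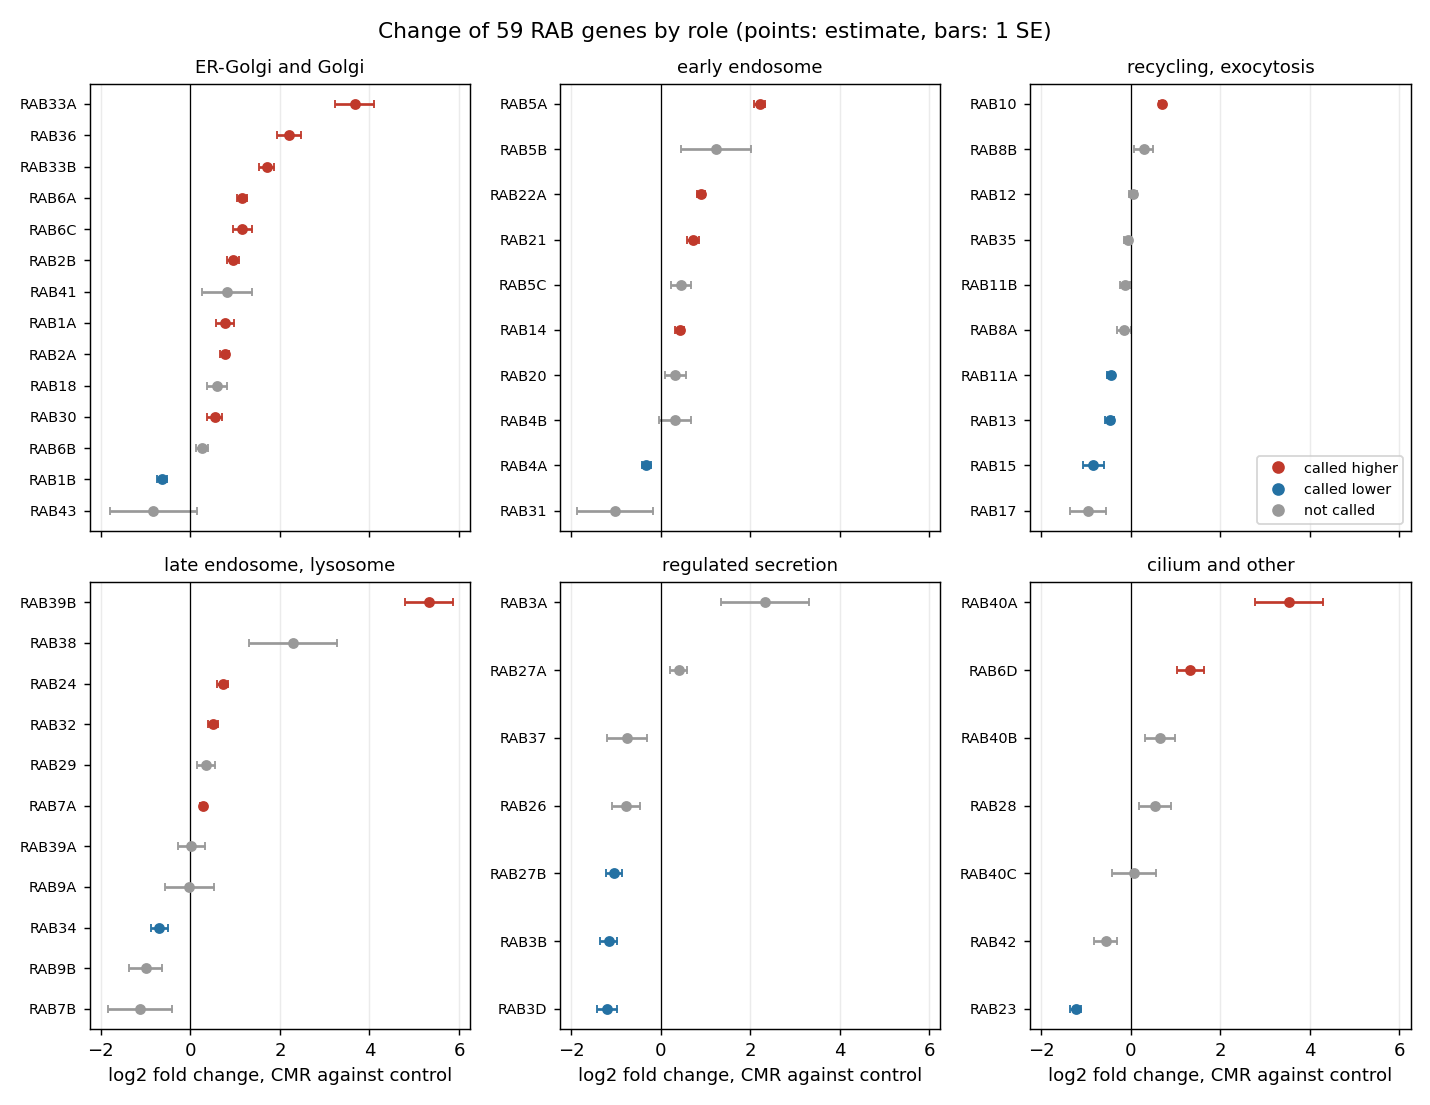
Log2 fold change (CMR minus control, with SE bars) of each tested RAB member, grouped by role, with colour for the call at an adjusted p under 0.05. The Golgi group lies mostly to the right of 0 and no member of the secretion group was called higher.

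The first role group acts between the endoplasmic reticulum and the Golgi and within the Golgi. Of its 14 tested members 9 rose and 1, RAB1B, fell, with a median log2 fold change of 0.80. This and the other role groups are small. Their calls stand against 20.5% higher and 18.1% lower among all tested genes. Among genes at a mean of at least 5 FPKM the shares were 32.5% and 24.1%. RAB6A, which drives retrograde Golgi traffic and exit of carriers to the surface (ENSG00000175582, chromosome 11, 73675638 to 73761137, minus strand), had 406, 403 and 504 normalised CPM with CMR and 204, 189 and 195 in controls. Every CMR library was thus above every control, and the log2 fold change was 1.16 ± 0.11 (SE; edgeR adjusted p = 0.000315). RAB2A, which works in Golgi structure and autophagosome fusion, had 224, 245 and 271 CPM with CMR and 152, 137 and 144 in controls (log2 fold change 0.77). Its relative RAB2B had 31.2, 35.5 and 39.7 CPM with CMR and 17.2, 20.8 and 17.0 in controls and rose as well (0.95 ± 0.14), with TOX4 on the other strand holding at least 10% of its count.

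RAB33A and RAB33B, Golgi RABs of which RAB33B binds the autophagy protein ATG16L1, both rose from a low level. RAB33B (ENSG00000172007) had 29.8, 36.4 and 43.1 CPM with CMR and 11.8, 11.6 and 10.1 in controls, 1.70 ± 0.17 on the log2 scale (edgeR adjusted p = 0.000384). RAB33A (ENSG00000134594) had 6.09, 5.92 and 7.12 CPM with CMR and 0.229, 0.83 and 0.443 in controls. Its rise was 12.7-fold (3.67 ± 0.44 on the log2 scale, edgeR adjusted p = 0.000851). RAB36, a Golgi and late endosome member that binds RILP, stood at 8.61, 8.32 and 12.1 CPM with CMR and 1.45, 2.4 and 2.46 in controls (log2 fold change 2.20 ± 0.27). None of the 3 overlapped between groups. A gene on the other strand of RAB33B, AC097376, has at least 10% of its count, and no source used here states whether counting used strand.

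RAB1A and RAB1B, near-identical regulators of transport from the endoplasmic reticulum to the Golgi, moved in opposite directions. RAB1A (ENSG00000138069) had 229, 182 and 245 CPM with CMR and 164, 98.4 and 119 in controls. Its groups did not overlap, the log2 fold change was 0.78 ± 0.20 and the edgeR adjusted p was 0.0193. This call was lost when any 1 of 4 libraries was left out (CMR 1, CMR 3, control 2 or control 3), with adjusted p between 0.0518 and 0.0661. RAB1B (ENSG00000174903, chromosome 11, 66268590 to 66277492, plus strand) had 180, 142 and 144 CPM with CMR and 243, 239 and 238 in controls, and fell by 0.63 ± 0.11 on the log2 scale (edgeR adjusted p = 0.00358). RAB1A therefore made up 42.9, 43.1 and 50.0% of the pair's summed FPKM with CMR and 28.6, 19.5 and 22.7% in controls.

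RAB6C, a copy of RAB6A without introns, rose with a log2 fold change of 1.16 ± 0.21, from 3.76, 3.28 and 4.78 CPM to 7.84, 8.39 and 10.1. Of 100-base windows of its transcript, 32.5% also occur in transcripts of RAB6D or RAB6A, so its reads may be shared. RAB30, a Golgi member, rose by 0.54 ± 0.17 (edgeR adjusted p = 0.0417), a call lost in 10 of 16 alternative settings. RAB18 of lipid droplets and the endoplasmic reticulum (0.59), RAB41 (0.82) and RAB43 (-0.83) did not pass the test. RAB6B, the RAB6A relative, did not pass either (0.26), at 18.5, 21.2 and 20.2 CPM with CMR and 17.3, 14.4 and 18.2 in controls. RAB19 was not tested, with counts of 4, 0 and 11 in controls and 0 in each CMR library.

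Of the 10 early endosome members, 4 rose and 1 fell (median log2 fold change 0.44). RAB5A directs fusion of incoming vesicles with early endosomes (ENSG00000144566, chromosome 3, 19947097 to 19985175, plus strand). Its 3 CMR libraries stood at 170, 200 and 228 CPM and its controls at 43.6, 44.6 and 41.0. The rise was 4.63-fold, or 2.21 ± 0.12 on the log2 scale (edgeR adjusted p = 6.57e-05), and RAB5A ranked 574th of 19200 genes from the top by log2 fold change. In FPKM the means were 43.2 with CMR and 9.85 in controls.

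RAB22A, which acts in sorting from early endosomes, had 145, 150 and 172 CPM with CMR and 83.0, 81.1 and 84.8 in controls (log2 fold change 0.91 ± 0.09, edgeR adjusted p = 0.000475). RAB21, known for integrin endocytosis, rose by 0.72 ± 0.13 and did not overlap between groups either. RAB14, which links the Golgi and endosomes, had 163, 186 and 204 CPM with CMR and 131, 141 and 139 in controls (log2 fold change 0.43, edgeR adjusted p = 0.0143). That call was lost without control 1 (adjusted p = 0.0601), and GSN on the other strand has at least 10% of the RAB14 count. RAB4A, of the rapid recycling route, was called lower at -0.32 ± 0.10 (edgeR adjusted p = 0.04), but the call was lost in 8 of 16 alternatives and 19.1% of its windows occur in SPHAR. Its relative RAB4B (0.32 ± 0.35), with 64.4% of its windows in readthrough transcripts such as RAB4B-EGLN2, and RAB20 of phagosomes (0.33 ± 0.23) did not pass.

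RAB5B and RAB5C, the other two genes of the RAB5 set, were not called. RAB5C had 73.8, 131 and 133 CPM with CMR and 81.0, 78.8 and 85.2 in controls, so CMR 1 lay below all controls (log2 fold change 0.46, edgeR adjusted p = 0.135). Without CMR 1 its log2 fold change was 0.69 and its adjusted p 0.00124. RAB5B had 160, 136 and 52.2 CPM with CMR and 18.2, 17.4 and 112 in controls, with control 3 above CMR 3 (log2 fold change 1.24, edgeR adjusted p = 0.257). Without control 3 the values were 2.70 and 0.00978. RAB5A held 47.5% ± 4.06 of the set's summed FPKM with CMR and 24.1% ± 4.92 in controls, while RAB5C held 36.1% and 62.0% (n = 3). Of RAB5C windows, 31.7% occur in the transcript AC099811.2, so its reads and these shares are uncertain.

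**Figure D3:**
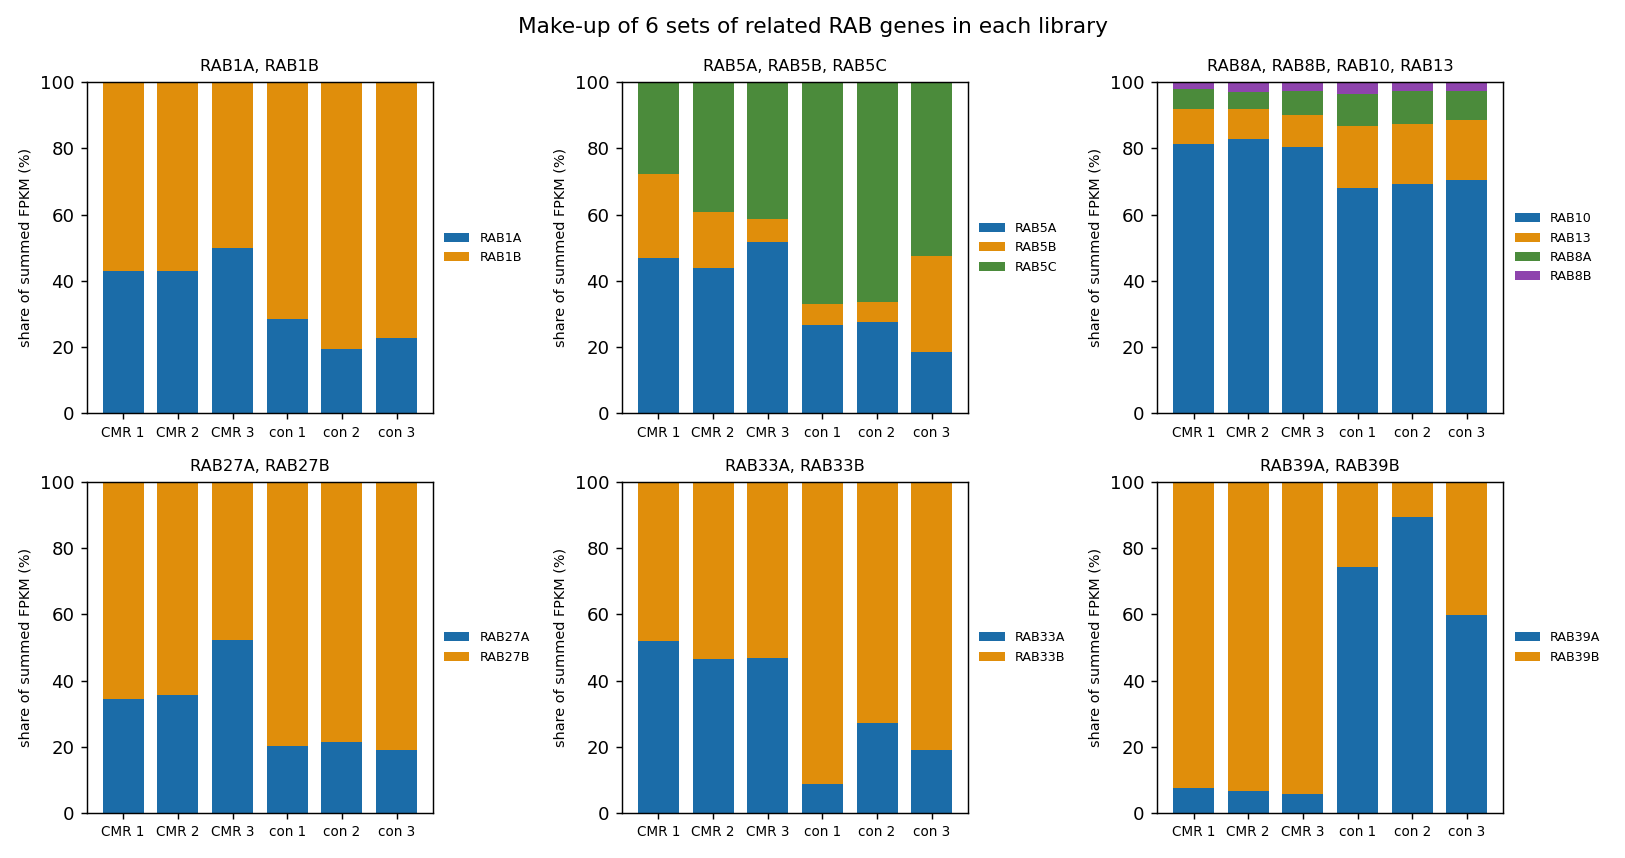
Share of summed FPKM (%) held by each gene of 6 sets of related RAB genes, 1 stacked bar per library (con, control). The RAB1A, RAB5A, RAB10, RAB33A and RAB39B segments are larger in every CMR library than in any control library, and the RAB27B segment is smaller.

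The group that returns cargo to the surface or exports it had 1 riser and 3 fallers among 10 tested members (median log2 fold change -0.14). RAB10, which acts in exocytosis and in shaping the endoplasmic reticulum (ENSG00000084733), was the riser. It had 478, 523 and 539 CPM with CMR and 315, 320 and 320 in controls, with no overlap (log2 fold change 0.69 ± 0.07, edgeR adjusted p = 0.000543). Its relative RAB13, known for tight junction traffic, had 46.4, 42.6 and 48.7 CPM with CMR and 66.1, 63.6 and 61.6 in controls. It fell by 0.47 ± 0.10 on the log2 scale, and 35.9% of RAB13 windows occur in transcripts of other genes, all of these in AL358472.6. RAB8A and RAB8B, which act in polarised export and cilia, overlapped between groups and did not pass. RAB8A had 49.1, 44.3 and 64.9 CPM with CMR and 60.4, 62.0 and 52.8 in controls (log2 fold change -0.15). RAB8B had 16.3, 25.1 and 26.1 CPM with CMR and 21.6, 16.8 and 16.7 in controls (0.29). RAB10 made up 81.6% ± 1.31 of the summed FPKM of these 4 relatives with CMR and 69.3% ± 1.31 in controls.

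RAB11A, the main RAB of recycling endosomes, had 126, 139 and 130 CPM with CMR and 179, 191 and 170 in controls. It fell by 0.45 ± 0.08 on the log2 scale (edgeR adjusted p = 0.00502), and DENND4A on the other strand, which rose, has at least 10% of its count. RAB11B stayed uncalled at -0.13 ± 0.11. RAB15 was called lower at -0.84 ± 0.23 (edgeR adjusted p = 0.0243), a call lost when any 1 of 4 libraries was left out (CMR 1, CMR 3, control 2 or control 3). RAB12, which sends receptors to degradation, had 56.0, 54.2 and 56.7 CPM with CMR and 52.8, 53.4 and 55.5 in controls, and did not pass (log2 fold change 0.05 ± 0.09). RAB35, of fast recycling and cytokinesis, differed by -0.07 ± 0.08 and RAB17, of epithelial transcytosis, by -0.95 ± 0.40, neither past the test.

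Late endosome, lysosome and melanosome members had 4 risers and 1 faller among 11 (median log2 fold change 0.28). RAB39B (ENSG00000155961, X chromosome, 155258235 to 155264491, minus strand), a gene of X-linked intellectual disability with parkinsonism, had the largest log2 fold change of the family. It had 44.2, 46.1 and 62.4 CPM with CMR and 0.803, 0.585 and 2.35 in controls, 5.33 ± 0.53 on the log2 scale (edgeR adjusted p = 0.000439). That is 40.2-fold, rank 75 of 19200 genes, and without control 3 the log2 value was 6.20. In FPKM it went from 0.312 to 12.2, while RAB39A did not pass the test (0.02 ± 0.30) at 1.95, 1.85 and 2.1 CPM with CMR and 1.28, 2.62 and 1.94 in controls. RAB39B made up 93.4% ± 0.826 of the pair's FPKM with CMR and 25.5% ± 14.7 in controls.

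RAB7A, which takes late endosomes to fusion with lysosomes (ENSG00000075785), had 461, 452 and 468 CPM with CMR and 380, 379 and 377 in controls. Its groups did not overlap but the change was small, 0.28 ± 0.06 on the log2 scale (edgeR adjusted p = 0.011), and the call was lost with upper-quartile scaling (adjusted p = 0.096) and without control 1 or control 2 (0.0501 and 0.0509). RAB32, of melanosomes and other lysosome-related organelles, had 52.8, 46.8 and 43.0 CPM with CMR and 34.0, 33.5 and 33.4 in controls (log2 fold change 0.50 ± 0.11, edgeR adjusted p = 0.0105). RAB24, an atypical member tied to autophagy, rose by 0.72 ± 0.12, but 54.8% of its windows occur in the transcripts of MXD3. RAB34, of lysosome position and cilia, was the faller at -0.69 ± 0.20 (edgeR adjusted p = 0.0285), lost without CMR 2, CMR 3, control 1 or control 3. RAB38, the close relative of RAB32, had 2.29 ± 0.99 from only 29 control counts in all and did not pass (edgeR adjusted p = 0.11), though 5 of 15 alternatives called it. RAB29, which recruits LRRK2 (0.35 ± 0.20), RAB7B (-1.12 ± 0.71) and RAB9B (-1.0 ± 0.36) did not pass.

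No member of the regulated secretion group was called higher, and 3 of 7 tested fell (median log2 fold change -0.77). RAB27B, which docks secretory granules and exosome-bearing endosomes (ENSG00000041353), had 29.9, 39.8 and 24.3 CPM with CMR and 66.1, 63.1 and 64.0 in controls. The CMR libraries were all lower, by 1.04 ± 0.18 on the log2 scale (edgeR adjusted p = 0.0036). RAB3D, the RAB3 of exocrine zymogen granules, had 5.57, 8.16 and 5.06 CPM with CMR and 16.1, 14.6 and 12.1 in controls (log2 fold change -1.19 ± 0.22, edgeR adjusted p = 0.00543). It overlaps TMEM205 and CCDC159, each with at least 10% of its count. RAB3B, a granule and synaptic vesicle member below 1 FPKM, fell by 1.16 ± 0.19.

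RAB27A, the partner of RAB27B in granule docking, was not called (0.40 ± 0.20), at 12.4, 17.3 and 20.9 CPM with CMR and 13.1, 13.4 and 11.7 in controls. Without CMR 1 it was called higher (log2 fold change 0.58, edgeR adjusted p = 0.0259). RAB27B's share of the pair's FPKM was 65.5, 64.4 and 47.7% with CMR and 79.9, 78.7 and 81.1% in controls. PIGB (other strand) and PIGBOS1 (same strand) overlap RAB27A, each with at least 10% of its count, so these shares are uncertain. RAB3A, the synaptic vesicle RAB, had 2.33 ± 0.99 on 40 control counts and did not pass (edgeR adjusted p = 0.107), though 3 of 15 alternatives called it higher. RAB26 (-0.77) and RAB37 (-0.75), both of secretory granules, did not pass either, and RAB3C was not tested, with counts of 10, 4 and 24 with CMR and 0 in every control. Summed FPKM of the group was 8.64, 9.82 and 8.18 with CMR and 15.4, 15.1 and 14.2 in controls.

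The last group holds cilium RABs, the RAB40 genes and poorly known members, and 2 of 7 tested rose and 1 fell. RAB23, a negative regulator of Hedgehog signalling at the cilium and the gene of Carpenter syndrome (ENSG00000112210), had 29.4, 32.8 and 26.8 CPM with CMR and 71.5, 73.8 and 63.2 in controls. Every CMR library was lower, by 1.23 ± 0.12 on the log2 scale (edgeR adjusted p = 0.000379), the largest called fall of the family, and BAG2 on the other strand has at least 10% of its count. RAB40A, a substrate adaptor of ubiquitin ligases, rose on 97 counts with CMR against 7 in controls (log2 fold change 3.53 ± 0.76, edgeR adjusted p = 0.00961), at a mean of 0.0963 FPKM with CMR, and limma-voom did not call it. Its control counts were 1, 2 and 4, so it passed the low-count filter only through the CMR libraries. Z69733 on the other strand has at least 10% of the RAB40A count. RAB6D (1.33 ± 0.30) rose below 1 FPKM, with 31.1% of its windows in RAB6C or RAB6A. RAB28 (0.54), RAB40B (0.65), RAB40C (0.07) and RAB42 (-0.56) did not pass, and RAB44 was not tested, with 8 counts in CMR 2 and 0 elsewhere.

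Several members differed more within a group than between groups. RAB31, an early endosome and Golgi RAB, had 118, 27.0 and 23.7 CPM with CMR and 37.3, 238 and 66.4 in controls, with CMR 1 and control 2 high. Its log2 fold change of -1.02 ± 0.84 became 0.12 without control 2 and -2.17 without CMR 1, and it was called in neither case. RAB9A, of transport from late endosomes to the Golgi, had 5.65, 22.1 and 9.18 CPM with CMR and 16.0, 15.3 and 6.24 in controls, and its groups overlapped fully (-0.02 ± 0.55).

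RAB43 had 2.57, 4.51 and 7.64 CPM with CMR and 12.2, 0.453 and 13.6 in controls, and 90.8% of its windows occur in other genes, chiefly the readthrough ISY1-RAB43. RAB28 had 22.8, 21.9 and 12.1 CPM with CMR and 19.9, 10.4 and 8.81 in controls. The high and low libraries differed from gene to gene. Among the 28 members at a mean of at least 5 FPKM, 4 (RAB31, RAB5B, RAB28 and RAB39B) spanned more than 2-fold within a group, of which RAB39B did so among controls at a mean of 0.312 FPKM. That is 14.3%, against 457 of all 6477 such genes (7.06%). The larger within-group ratio of highest to lowest library had a median of 1.25 over these members and 1.28 over all such genes. RAB31, RAB9A, RAB28 and RAB43 were picked for display after their values were seen.

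**Figure D4:**
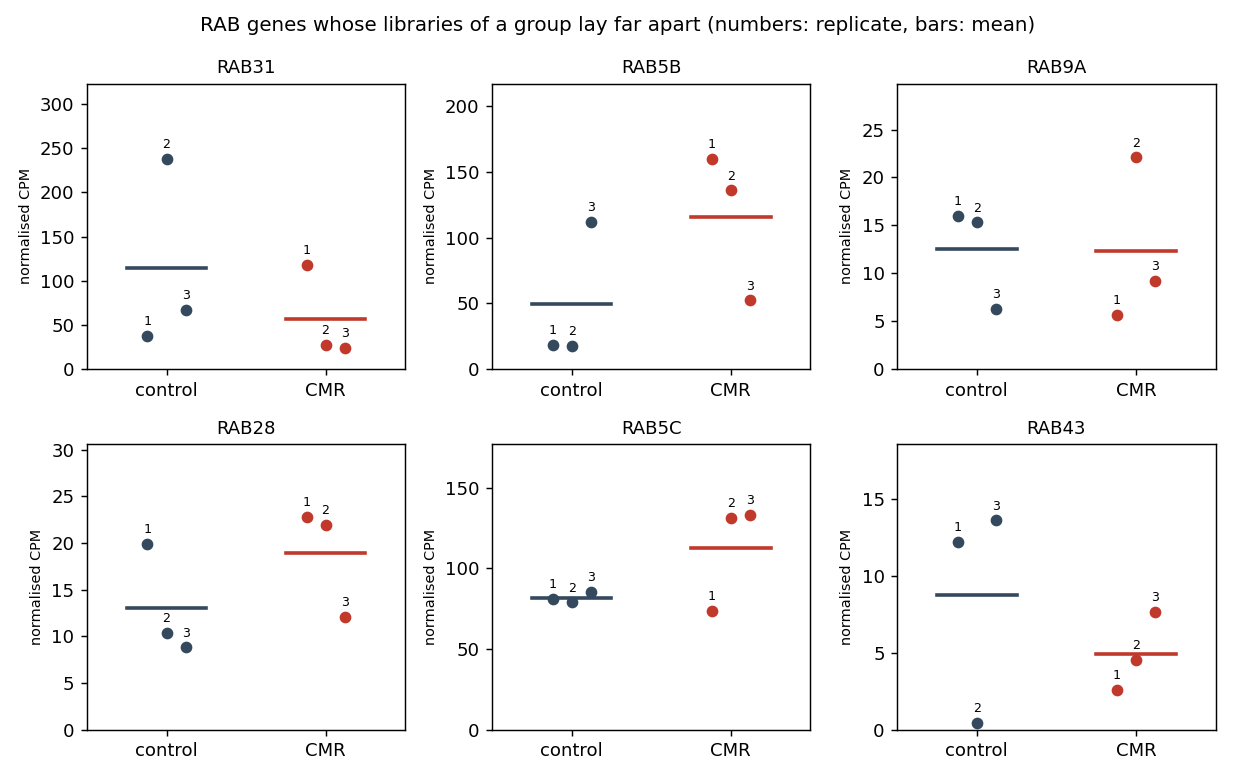
Normalised CPM of 6 RAB genes in each library, numbered by replicate, with a bar at each group's mean. In RAB31 and RAB5B a single library of a group stands above or below the other two, and a different library does so in each gene.

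The genes that load, unload, modify or read RABs were also tested, from lists of 135 partners of which 132 passed the filter. With CMR 46 rose and 25 fell, with a median log2 fold change of 0.27 (all genes: -0.01, with 20.5% higher and 18.1% lower). Of 37 GAPs, 17 rose and 7 fell. The risers included TBC1D8B (1.96 ± 0.21), EVI5L (1.80 ± 0.18), EVI5 (1.68 ± 0.23), which is known for acting on RAB11, and TBC1D15 (1.49 ± 0.20), a GAP of RAB7A. Genes that overlap a named partner and have at least 10% of its count are MORC4 for TBC1D8B, RAB11A for DENND4A, SWI5 for GOLGA2 (each on the other strand) and OPN3 for CHML (same strand).

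Of 39 GEFs, 12 rose and 6 fell. C9orf72, whose repeat expansion causes familial amyotrophic lateral sclerosis, rose from 1.12 to 3.47 FPKM (log2 fold change 1.71 ± 0.14, edgeR adjusted p = 0.000206), and DENND4A (1.47 ± 0.21) and RAB3IL1 (1.11 ± 0.22) rose as well. RIN1, a RAB5 activator, fell by 1.44 ± 0.26. Chosen after their values were seen, the RAB5 activators RABGEF1 (0.76 ± 0.08) and GAPVD1 (0.66 ± 0.10) and the RAB7 activators MON1B (0.70 ± 0.09), CCZ1 (0.76 ± 0.09) and CCZ1B (0.79 ± 0.09) rose, the last pair being near-identical copies whose reads may be shared.

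Of 44 effectors, 12 rose and 9 fell. GOLGA2, the Golgi tether GM130 that binds RAB1, had a mean of 24.7 FPKM with CMR and 7.84 in controls (log2 fold change 1.73 ± 0.10, edgeR adjusted p = 6.23e-05). PLEKHM1, a RAB7 effector of lysosome fusion (1.51 ± 0.14), and MICALL1 of recycling endosomes (1.39 ± 0.20) rose. SYTL2, a RAB27 effector of granule docking, went from 28.9 to 9.8 FPKM and fell by 1.48 ± 0.13 on the log2 scale (edgeR adjusted p = 0.000277). Chosen after their values were seen, the other listed RAB27 effectors moved in both directions. MLPH, another RAB27 effector, fell by 1.20 ± 0.15, while EXPH5 and SYTL1, also RAB27 effectors but below 1 FPKM, rose (2.68 and 2.21) and SYTL5 and MYRIP, equally below 1 FPKM, fell (-2.13 and -1.03). SYTL3 (0.07), RPH3AL (-0.78) and UNC13D (0.14) did not pass, and SYTL4 was not tested.

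Of the 10 genes of prenylation and the membrane cycle, 4 rose and 2 fell. RABAC1, which frees RABs from their chaperone at the membrane (1.11 ± 0.19), RABGGTB, the catalytic subunit that adds the lipid anchor (0.80 ± 0.09), and the chaperone GDI2 (0.34 ± 0.10) rose. The GDI2 call was lost in 5 of 16 alternatives, among them the upper-quartile scaling and leaving out any 1 control. CHML, a RAB escort protein, fell by 0.81 ± 0.17. Both tested genes of RAB phosphorylation were called: the kinase LRRK1 fell by 1.40 ± 0.22, and PPM1H, the phosphatase of phosphorylated RABs, rose by 0.97 ± 0.17. The kinase LRRK2 was not tested, with counts of 4, 2 and 0 with CMR and 0 in every control.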

How the data were processed

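Per the labels, RNA of PANC-1 cells was sequenced from both fragment ends; the protocol text names poly(A) selection but also a poly(A)- fraction. Per the file headers, each gene has an unscaled whole-number count and an FPKM value as deposited; FPKM divides by length and depth, and 0.0001 stands for no count. Tools named in the submitters' processing notes are HISAT2 2.0, StringTie 1.3.0 and Bowtie 0.12.2, with the mouse build mm8. The identifiers are human, and 47519 of 58552 genes (81.2%) found in GENCODE release 29 have the same span there, so coordinates were read as GRCh38. Among RAB members 28 of 63 have the same span. No source used here gives the counter or its strand setting.

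Counts were tested with edgeR 4.0.16 (R 4.3.3): TMM scaling, filterByExpr (minimum count 10, minimum total 15), quasi-likelihood test, Benjamini-Hochberg adjustment over 19200 genes. The code was tested on simulated data. Standard errors are the log2 fold change divided by the root of F, and CPM uses the TMM factors. DESeq2 1.42.0, limma 3.58.1 (voom, or FPKM with a pseudocount of 1 or 0.1), other scalings and filters, a replicate block and leaving out each library were alternatives. The members and all lists were chosen with earlier results of these data known. Per-library values are given for members called at 2-fold or more with at least 1 FPKM in the higher group, the 10 of highest mean FPKM and their relatives above 1 FPKM, and also for some other members, such as RAB11A, RAB12, RAB22A, RAB39A and those of wide spread, picked after their values were seen; of each partner list, up to 4 called genes with the largest change at 1 FPKM or more are named. RAB6D, in no role list, was placed with the last group. Shared sequence was counted in 100-base windows of the longest coding transcript in GENCODE. Promoters are from RefSeq, matched by symbol. The table had 0 columns of no sample.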

Additional observations from a re-analysis of the deposited data

How the results depend on the processing

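Under the alternatives other than leaving out a library, 18 to 24 RAB genes were called higher (20 as reported) and 8 to 12 lower (10 as reported), 39 to 48 partner genes higher and 21 to 33 lower, and 6333 to 7932 of all genes. Leaving out 1 library at a time gave 17 to 21 RAB genes higher, 7 to 10 lower, 40 to 48 partner genes higher, 17 to 26 lower and 5660 to 7711 of all genes. Of the 30 called members, 22 were called in all alternatives that tested them, and 0 changed direction. Of the 29 not called, 11 were called under at least 1 alternative. With upper-quartile scaling the all-gene median went from -0.01 to -0.14 (log2) and the split of calls from 3928 higher and 3476 lower to 3250 and 4324, with 18 RAB genes higher and 11 lower. On log2(FPKM + 1), which shrinks low genes by construction, RAB39B was 3.33, RAB33A 2.18 and RAB36 1.02. RAB40A was not called by limma-voom (adjusted p = 0.0579). With 3 libraries per group, members below 1 FPKM have few counts and wide errors.

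Whether the replicate numbers pair the libraries could not be settled. Same-numbered libraries had correlations of 0.0344, 0.044 and 0.052 in their deviations from the group means. Differently numbered libraries had correlations from -0.0305 to -0.00989. All values are near 0, but each library correlated best with its own number. Deviations from a group's mean sum to 0, so positive values for some pairs force negative values for others. The contrast of signs is therefore no separate evidence on pairing. With the replicate block, 6737 genes were called, among them 21 RAB genes higher and 9 lower, and 42 partner genes higher and 23 lower. RAB18 was then called (adjusted p = 0.0279) and RAB4A was not (adjusted p = 0.0594).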

Other observations

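The 3 called RAB genes with the largest log2 fold changes, RAB39B (5.33), RAB33A (3.67) and RAB40A (3.53), all lie on the X chromosome, a pattern noticed after the values were seen. RAB40A rests on 97 counts with CMR against 7 in controls, at a mean of 0.0963 FPKM with CMR. It passed the low-count filter only through its CMR libraries, so its rise is no support for the pattern. RAB40A kept its call in 14 of 15 alternatives, and limma-voom did not call it (log2 fold change 3.26, adjusted p = 0.0579). Its lowest log2 fold change under the alternatives, 0.12, is that on log2(FPKM + 1), which shrinks low genes by construction. Of the 6 tested members on X, 3 were called higher and 0 lower, and RAB41 (0.82), RAB9A (-0.02) and RAB9B (-1.0) were not called. Among all 640 tested genes on X, 23.4% were called higher and 15.2% lower, against 20.4% and 18.1% on the autosomes.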
